A study of Oryza sativa with 16 samples.

Results

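Thioredoxins (Trx) and glutaredoxins (GRX) are small redox proteins, and 33 genes that carry such a name were followed here across salt and drought stress of rice seedlings. A gene was taken as a member where its symbol or a synonym, without the rice prefix Os, starts with TRX or GRX. That rule named 43 genes, of which 33 have an array probe set of their own, out of 17905 genes so measured. The members comprise 7 GRXC genes, 11 GRXS genes, 5 plastid-type Trx genes (Trxf, Trxm1, Trxm2, Trxm5 and Trxy), 5 h-type Trx genes and 4 other Trx genes (Trx15, Trx19, Trx25 and Trx26). The remaining member, TRX1 (LOC4346464), holds its place by name only. It is a SET-domain gene whose name stands for trithorax, a family of histone methyltransferases, and it is given apart from the other 32.

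Expression was profiled on 16 Affymetrix rice arrays, 2 for each of 8 groups. The groups were salt-stressed and control seedlings of salt-sensitive VSR156, salt-stressed and control seedlings of salt-tolerant CSR11, drought-stressed and control seedlings of drought-sensitive IR64, and drought-stressed and control seedlings of drought-tolerant Vandana. Per the labels, leaves of seedlings of 2 weeks were taken after 24 h in 50 mM NaCl or after 24 h of drought. The study's methods give a higher salt concentration and a shorter drought. In the part on RNA they give shoots, and a lower seedling age counted from germination. A figure legend of the study instead names whole plants, which include roots, as the material for the arrays. The labels give sensitive and tolerant, and the variety names were taken from the study. Replicates are lettered A and B in each group. Tissue was pooled before RNA extraction and no source says whether A and B came from separate plants, so that p-values measure only the spread between arrays, which may be technical.

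Both families move electrons from a reductant to disulfide bonds of other proteins by means of cysteines in a short active-site motif. Plastid thioredoxins of the f, m and y types receive electrons from ferredoxin through ferredoxin-thioredoxin reductase in the light. The h types, mainly in the cytosol, receive them from NADPH through NADPH-thioredoxin reductase, and glutaredoxins receive them from glutathione. In the plant GRX names the letter C or S stands for a cysteine or a serine at the end of that motif. Electrons from both systems also serve peroxiredoxins and methionine sulfoxide reductases, enzymes that remove peroxides and repair oxidised methionine.

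Values below are normalised intensities, the deposited intensities after quantile normalisation over all arrays, given for array A and then array B. Differences are on the scale of log2(intensity + 16), stressed minus control, with the standard error (SE) of the limma model over all 16 arrays. The added 16 makes the differences of dim genes smaller. A member was called where its p, adjusted after Benjamini-Hochberg over 57194 probe sets, was under 0.05 and its difference at least 1. "Rose" and "fell" are used for called members only. The same probe set was compared between groups throughout, and no gene was ranked against another by level, since probe sets differ in how they bind. Of the 33 members, 30 reached 100 in at least 2 arrays, and 3 did not.

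The arrays of the salt experiment differed strongly in brightness. Mean deposited intensity lay between 9.165 and 132.9 in the salt experiment and between 99.78 and 230.5 in the drought experiment. The salt arrays of VSR156 (36.2 and 22.92) and salt array B of CSR11 (9.165) were among the dimmest. For GAPDH, the 3' signal over the 5' signal, a ratio that is larger in degraded RNA, lay on the log2 scale between 2.017 and 6.056 in the salt experiment and was at most 1.338 in the drought experiment. Leaf markers (the small subunit of Rubisco, Rubisco activase and a chlorophyll-binding protein) were bright in every array, with 0 of 4 called in any of the 4 stress comparisons. The root transporter genes Lsi1, Lsi2 and NRAMP5 summed to between 198.4 and 2394.6 in the salt experiment and to between 78.2 and 196.6 in the drought experiment, where Lsi2 never exceeded 2.485. Among 206 probe sets that lay at least 3 log2 units apart between the drought controls, the mean log2 levels of groups were compared by correlation. The drought arrays labelled Vandana correlated at r = -0.558 with the Vandana control and at 0.851 with the IR64 control. The drought arrays labelled IR64 correlated at 0.00865 with the Vandana control and at 0.462 with the IR64 control. Results for Vandana drought are therefore given as those of the arrays so labelled. Values of members against the other control are given where a call was lost or a sign changed, and for GRXC1.

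In VSR156 under salt, 8 of the 33 members were called (24.2%), against 13.3% of all genes and 14.7% of the 8865 genes with a mean intensity of at least 100. In CSR11 under salt, 4 were called (12.1%), against 10.4% of all genes and 12.5% of the brighter ones. In IR64 under drought, 6 were called (18.2%), against 13.6% and 20.0%. In the arrays labelled Vandana drought, 13 were called (39.4%), against 24.1% and 33.8%. The shares in CSR11 and IR64 thus lay near those of all genes. The brighter genes hold 28 of the members, of which 12 were called in Vandana (42.9%). In VSR156 6 members were higher and 2 lower, against 6.80% and 6.53% of all genes, and in CSR11 2 were higher and 2 lower, against 4.47% and 5.96%. In IR64 2 were higher and 4 lower, against 5.49% and 8.15% of all genes, and in Vandana 4 were higher and 9 lower, against 10.6% and 13.5%. The median difference over the members was 0.31, 0.15, 0.03 and 0.21 in the same order, whereas the median over all genes lay between -0.04 and 0.06 in every comparison. At an unadjusted p under 0.05 the 4 comparisons held 21, 17, 19 and 25 of the 33 members, against 46.1%, 45.4%, 41.5% and 52.0% of all genes and 54.8%, 56.0%, 56.8% and 69.0% of the brighter ones.

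**Figure D1:**
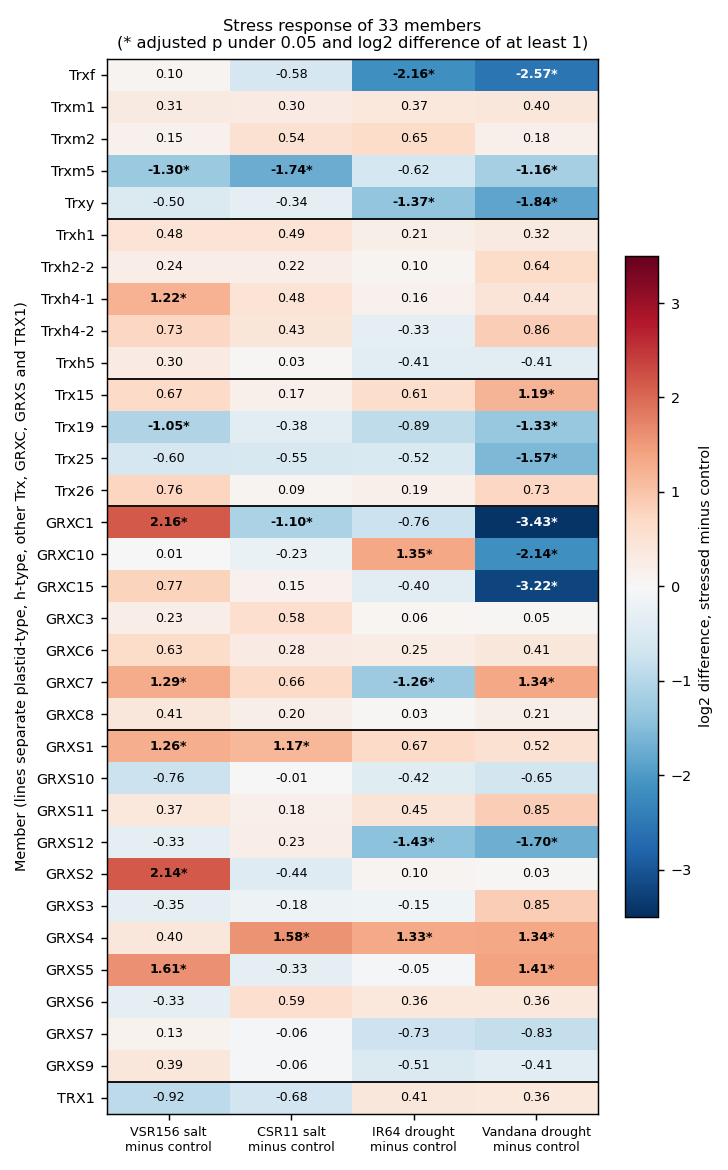
Difference of each of the 33 members (down the page, by class) in the 4 stress comparisons (across), as log2 of stressed minus control with red for higher and blue for lower; an asterisk marks a call. GRXC1 runs between 2.16 in VSR156 salt and -3.43 in Vandana drought, and Trxf and Trxy stand at -1.37 or lower in both drought comparisons.

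The direction in VSR156 rested on the scaling, and so did the number of calls elsewhere. On the intensities as deposited, 9 members were called in VSR156 and all 9 were lower, with a median of -1.81, where 0.0227% of all 57194 probe sets were higher and 22.8% lower. With each array centred on its own median 8 were called, all lower, with a median of -1.26, where 0.194% of all probe sets were higher and 16.9% lower. On the deposited scale the median of all 57194 probe sets was itself at -0.53 in VSR156 and at -0.16 in CSR11. The plot of the members under 3 scalings shows the shift in both salt comparisons and a smaller one under drought, where the median went no lower than -0.23. Most drought calls ended all the same. IR64 had 0 members called as deposited and 1 after centring, against 1.57% and 3.45% of all probe sets, and Vandana had 3 and 4, against 5.38% and 8.09%. In CSR11 the median under those scalings was -0.81 as deposited and -0.67 after centring, and 0 members were called, against 0.0227% and 0.682% of all probe sets. The GAPDH ratio also moved with the salt groups. On the log2 scale VSR156 salt arrays had 6.056 and 5.895, against 4.645 and 4.389 in the control, and CSR11 salt arrays had 3.251 and 4.596, against 2.945 and 2.017. Its part in the salt results below was not tested.

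**Figure D2:**
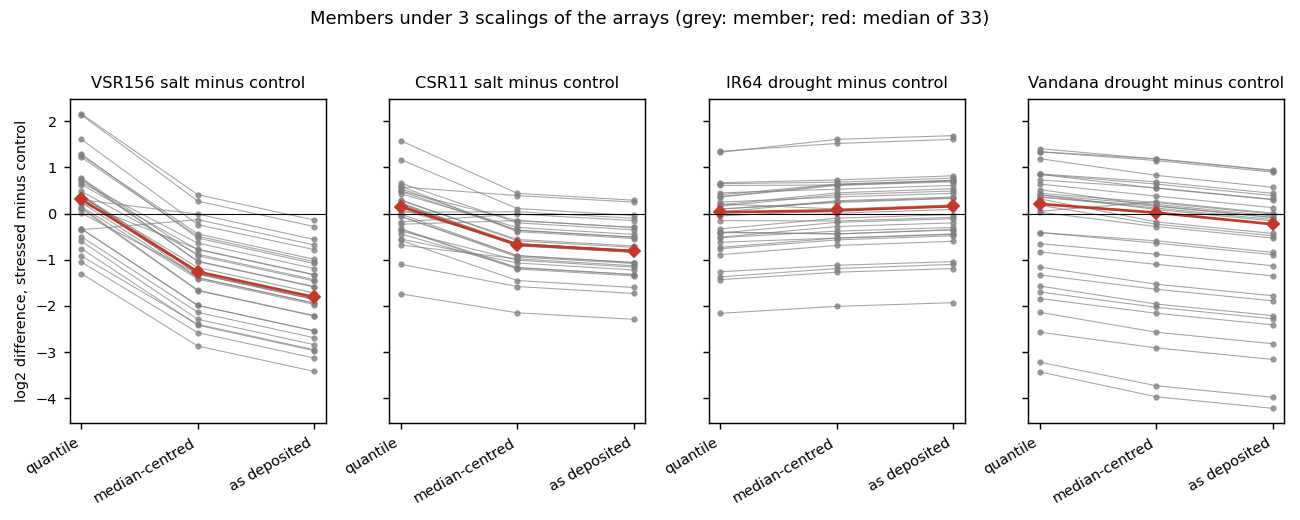
Log2 difference (stressed minus control, y axis) of each member (grey) and the median of all 33 (red diamonds) after quantile normalisation, centring on array medians, or no scaling (x axis), in the 4 stress comparisons. The median in VSR156 salt is 0.31 after quantile normalisation and -1.81 on the deposited values, and in IR64 drought 0.03 and 0.16.

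Across the 4 comparisons, 16 of the 33 members were called at least 1 time and 17 never, where 39.5% of all genes and 48.5% of the brighter ones were called at least 1 time. None was called in all 4, 4 were called in 3 comparisons, 7 in 2 and 5 in 1, against 0.687%, 3.59%, 12.9% and 22.3% of all genes. In both directions 3 were called, against 3.51% of all genes and 4.39% of the brighter ones. The members called in both salt comparisons numbered 3 (GRXC1, GRXS1 and Trxm5), against 3.15% of all genes. Those called in both drought comparisons numbered 6, against 10.8% of all genes and 16.7% of the brighter ones, and of these 4 moved the same way (Trxf, Trxy and GRXS12 lower, GRXS4 higher) and 2 in opposite ways (GRXC7 and GRXC10). Members not called in a comparison ranged from -0.92 to 0.77 in VSR156, from -0.68 to 0.66 in CSR11, from -0.89 to 0.67 in IR64 and from -0.83 to 0.86 in Vandana.

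Among the plastid-type thioredoxins, Trxf and Trxy fell in both drought comparisons. Since the variety of the arrays labelled Vandana drought is in doubt, these are not read as 2 separate varieties. Trxf (LOC4324320, chromosome 1), whose protein activates Calvin cycle enzymes such as fructose-bisphosphatase in the light, had 418 and 434 in IR64 drought arrays, against 1926 and 1984 in IR64 control arrays. It had 371 and 353 in Vandana drought arrays, against 2149 and 2297 in Vandana control arrays. The stressed arrays lay far below the control arrays in both comparisons, with no overlap. The differences were -2.16 (SE 0.13, adjusted p 8.26e-07 by limma) in IR64 and -2.57 (SE 0.13, adjusted p 8.19e-08) in Vandana. As deposited they were -1.93 (adjusted p 0.436) and -3.16 (adjusted p 0.0548), and after centring -2.01 (adjusted p 0.154) and -2.91 (adjusted p 0.0169), so that 1 of the 4 remained a call. Under salt Trxf was at 345 and 370 in VSR156, against 331 and 336 in its control, and at 487 and 520 in CSR11, against 878 and 662, and was called in neither. In bulk tissue, fewer cells of a type and less RNA per cell cannot be told apart. The summed leaf markers, 4 genes none of which was called, were 10591.3 and 11039.8 in IR64 drought against 13548.5 and 12882.6 in the control, and 10117.8 and 9409.1 in Vandana drought against 12670.9 and 12965.6. Their part in the lower Trxf was not tested.

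Trxy (LOC4324458, chromosome 1) encodes a thioredoxin of the y type, known in Arabidopsis as an electron donor to peroxide-removing enzymes of the plastid. It stood at 302 and 288 in IR64 drought arrays, against 791 and 790 in IR64 control arrays. In Vandana it stood at 298 and 291 under drought, against 1117 and 1081 in the control. The drought arrays under both labels stood at nearly the same level, below every control array. Its differences were -1.37 (SE 0.15, adjusted p 7.6e-05) in IR64 and -1.84 (SE 0.15, adjusted p 3.52e-06) in Vandana, and -0.50 and -0.34 in VSR156 and CSR11 under salt, where it was not called. Both drought calls ended under the other scalings, with IR64 at -1.10 as deposited and -1.19 after centring and Vandana at -2.41 and -2.16.

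Trxm5 was the plastid member that fell under salt. It had 270 and 174 in VSR156 salt arrays, against 524 and 594 in VSR156 control arrays, and 268 and 116 in CSR11 salt arrays, against 766 and 520 in CSR11 control arrays. The stressed arrays were lower in both varieties, and the 2 salt arrays of CSR11 stood apart from each other, with B below A. The differences were -1.30 (SE 0.31, adjusted p 0.0127) in VSR156 and -1.74 (SE 0.31, adjusted p 0.00296) in CSR11. Under drought the values were 1201 and 1190 in IR64, against 1788 and 1898 (-0.62, not called), and 1017 and 1022 in Vandana, against 2246 and 2364 (-1.16, SE 0.31, adjusted p 0.0176). These calls were fragile. By limma the CSR11 call was lost as deposited (-2.29, adjusted p 0.541) and after centring (-2.15, adjusted p 0.263). The Vandana call was lost there too (-1.78 and -1.53). The VSR156 call was kept under both scalings (-3.42 and -2.87), which leave the salt arrays dim at least in part. With only the 8 arrays of the experiment, the CSR11 (-1.59, adjusted p 0.0643) and VSR156 calls (-1.19, adjusted p 0.12) were lost. The VSR156 call was lost without VSR156 control array A (adjusted p 0.0504), VSR156 control array B (0.0901) or VSR156 salt array B (-1.01, adjusted p 0.103). The Vandana call was lost without any 1 of the 4 Vandana arrays, with adjusted p between 0.0752 and 0.0885, and against the IR64 control (-0.84, adjusted p 0.11). A second probe set of Trxm5 gave -0.76 in VSR156, -1.01 in CSR11, -0.79 in IR64 and -1.47 in Vandana, and was called in CSR11 and Vandana. Trxm1 and Trxm2 were not called in any stress comparison, with differences between 0.15 and 0.65.

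The h-type thioredoxins moved little. Of 5 genes, 1 was called in VSR156 under salt, and 0 in CSR11, IR64 and Vandana, where 3, 0 and 4 had an unadjusted p under 0.05. The shares of all genes called in the same order were 13.3%, 10.4%, 13.6% and 24.1%. Trxh4-1 (LOC4325189) rose in VSR156 to 146 and 140 in salt arrays, against 57.1 and 48.1 in control arrays (1.22, SE 0.15, adjusted p 0.000238). Its CSR11 salt arrays read 146 and 153, against 112 and 93.8 in the control (0.48), so that the salt arrays of both varieties stood at nearly the same level and the control arrays of VSR156 were the low ones. On the deposited scale Trxh4-1 in VSR156 stood at -1.04, and after centring at -0.49. Trxh1 (LOC4342593), a thioredoxin first found in rice phloem sap, was at 1505 and 1424 in VSR156 salt arrays, against 1085 and 1005 in the control, and at 3020 and 3045 in CSR11 salt arrays, against 1993 and 2317. Its differences, 0.48 and 0.49 under salt and 0.21 and 0.32 under drought, were not called.

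Of the other thioredoxins, 3 of 4 were called in Vandana, 1 of 4 in VSR156 and 0 of 4 in CSR11 and IR64. Vandana also had the largest share of all genes called, 24.1%, against 13.3% in VSR156, 10.4% in CSR11 and 13.6% in IR64. With 4 genes, the counts cannot be set apart from those shares. Trx15 (LOC4337091), also named CXXS1 after a motif in which a serine replaces the last cysteine, rose in Vandana to 2191 and 2167 in drought arrays, against 943 and 947 in control arrays (1.19, SE 0.09, adjusted p 2.65e-06). In IR64 it was at 2181 and 2159, against 1412 and 1422 (0.61). The drought arrays under both labels thus stood at the same level, above all control arrays, and the Vandana control arrays were the lowest.

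Trx19 (LOC4338057) fell in Vandana to 149 and 173 under drought, against 495 and 367 in the control (-1.33, SE 0.25, adjusted p 0.00198). In VSR156 it fell to 75.9 and 152 under salt, against 247 and 236 (-1.05, SE 0.25, adjusted p 0.0122). The VSR156 call rested on salt array A, without which the difference was -0.62 (adjusted p 0.0701), and was also lost without VSR156 control array A (adjusted p 0.0734) or B (0.063). Trx25 (LOC4345435) fell in Vandana to 106 and 87.4, against 335 and 302 in the control (-1.57, SE 0.21, adjusted p 0.000164), and was at 119 and 92.9 in IR64 drought arrays, against 146 and 171 (-0.52). Against the IR64 control, the arrays labelled Vandana drought gave 0.62 for Trx15, -0.92 for Trx19 and -0.63 for Trx25, none of which is a call. Trx26, named TDX after a thioredoxin with tetratricopeptide repeats in Arabidopsis, was not called, with differences between 0.09 and 0.76.

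**Figure D3:**
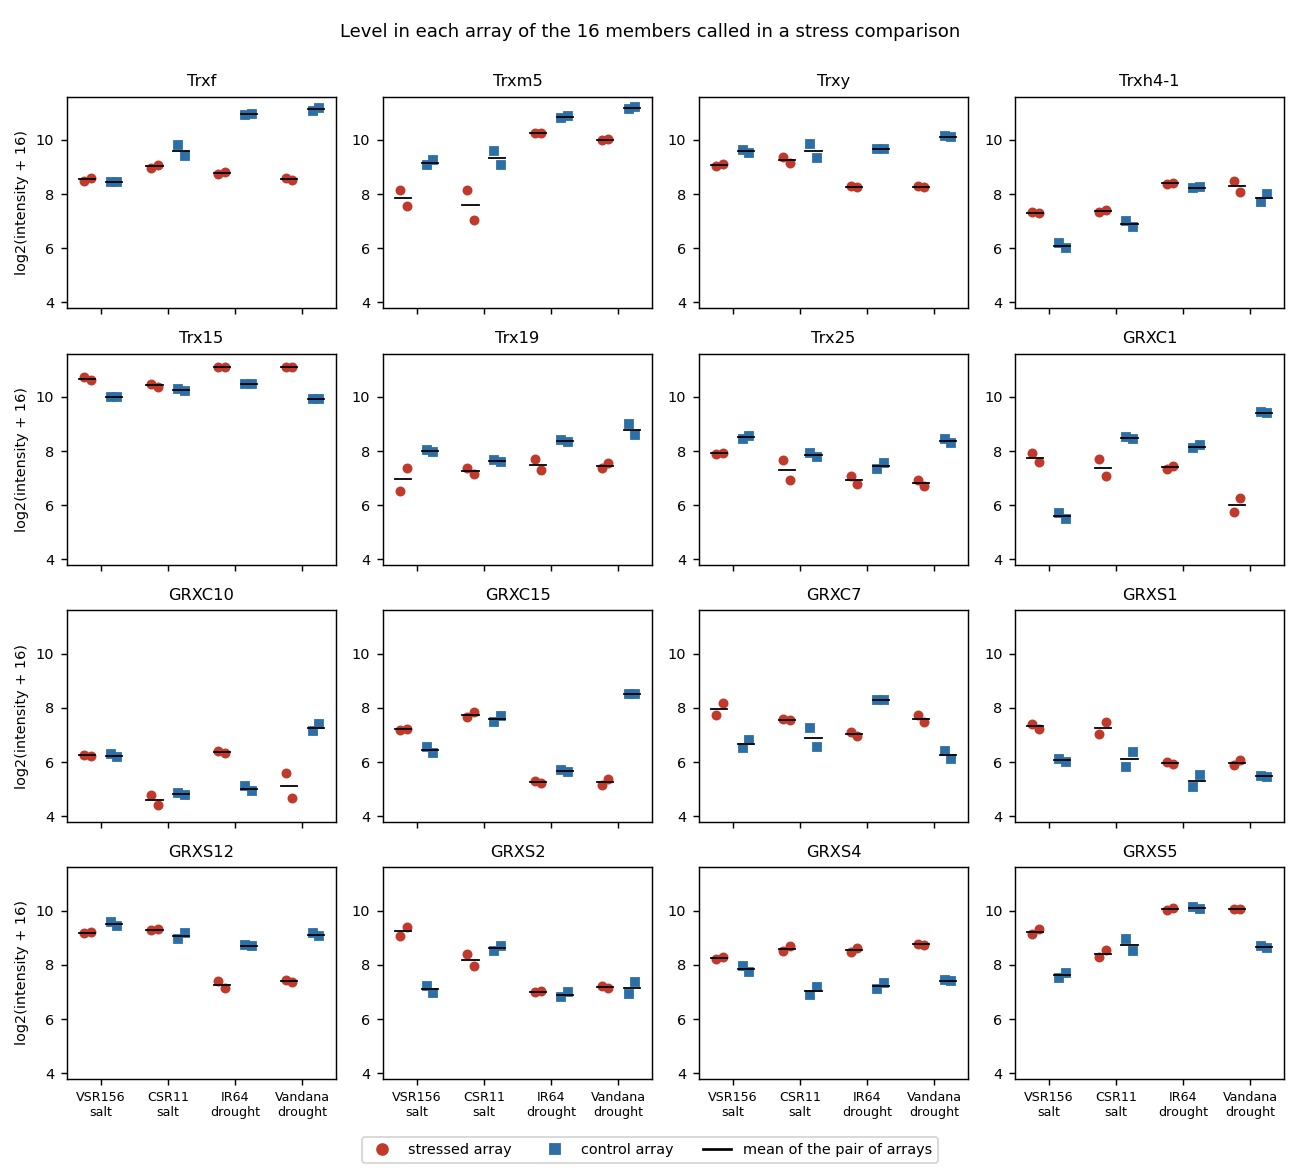
Level as log2(normalised intensity + 16) (y axis) in each array of the 16 members called in a stress comparison, with stressed arrays as red circles left of the control arrays of their variety as blue squares (x axis) and the mean of each pair as a line. Stressed and control arrays stand clear of each other for Trxf in both drought comparisons, and the Vandana control arrays of GRXC15 (346 and 348) lie above all other drought-experiment arrays of that gene.

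Of the 7 GRXC genes, 3 (GRXC1, GRXC7 and GRXC10) were called in both directions. GRXC1 (LOC4325734, chromosome 1) had 229 and 175 in VSR156 salt arrays, against 36.5 and 28.7 in VSR156 control arrays (2.16, SE 0.22, adjusted p 5.69e-05). In CSR11 it had 190 and 119 in salt arrays, against 352 and 331 in control arrays (-1.10, SE 0.22, adjusted p 0.00555). Salt arrays of the 2 varieties overlapped, while their control arrays lay far apart. The CSR11 call was lost without CSR11 salt array B (-0.80, adjusted p 0.0386), and in VSR156 the difference was 0.41 after centring and -0.14 as deposited.

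The root transporter genes moved with the same salt arrays. Their sum was 1083.0 and 1171.3 in VSR156 salt arrays, against 198.4 and 198.9 in the control, with 2 of 3 called higher, and 911.9 and 1097.1 in CSR11 salt arrays, against 2394.6 and 2113.7 in the control, with 2 of 3 called lower. The part of those markers in the GRXC1 result was not tested. Under drought GRXC1 fell in Vandana to 37.3 and 60.5, against 685 and 655 in the control (-3.43, SE 0.22, adjusted p 4.81e-07). Against the IR64 control the difference was -2.16 (adjusted p 4.33e-05). It was at 147 and 159 in IR64 drought arrays, against 258 and 282 in the control (-0.76, not called). The root marker sum was lower under drought too, at 81.0 and 100 in Vandana, against 155.8 and 159.5 in the control, and at 78.2 and 90.1 in IR64, against 165.0 and 196.6, with 0 of 3 called in either, and its part was not tested.

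GRXC15 (LOC4352426) lies on chromosome 12 beside GRXC14, and GRXC10 (LOC4351046) on chromosome 11 beside GRXC11. The neighbours have no probe set of their own. GRXC15 fell in Vandana to 20.1 and 25.8 under drought, against 346 and 348 in the control (-3.22, SE 0.13, adjusted p 1.74e-08). In IR64 it read 23.6 and 21.6 under drought, against 35.8 and 33.9 (-0.40, not called). The Vandana control arrays were thus the ones that stood apart, and against the IR64 control the arrays labelled Vandana drought differed by -0.39 (adjusted p 0.0763). Under salt GRXC15 was at 129 and 135 in VSR156, against 79.2 and 63.8 (0.77), and at 187 and 214 in CSR11, against 164 and 193 (0.15).

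GRXC10 rose in IR64 and fell in Vandana. It had 68.2 and 64.7 in IR64 drought arrays, against 18.4 and 14.3 in IR64 control arrays (1.35, SE 0.24, adjusted p 0.00269). In Vandana it had 32.4 and 9.51 under drought, against 125 and 154 in the control (-2.14, SE 0.24, adjusted p 4.97e-05). Against the control of the other variety these differences became -0.91 in IR64 and 0.12 in Vandana. GRXC7 (LOC4338050) went the other way. It had 122 and 110 in IR64 drought arrays, against 298 and 302 in the control (-1.26, SE 0.23, adjusted p 0.00293), and 197 and 161 in Vandana drought arrays, against 69.2 and 52.9 in the control (1.34, SE 0.23, adjusted p 0.00116). Against the other control it stood at 0.78 in IR64 and -0.71 in Vandana. Both signs of both genes therefore turned with the control used.

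GRXC7 also rose in VSR156 under salt, to 198 and 276, against 76.6 and 96.5 in the control (1.29, SE 0.23, adjusted p 0.00248), a difference of -0.53 after centring and of -1.08 as deposited. In CSR11 it was at 178 and 170, against 138 and 77 (0.66, not called). GRXC3, GRXC6 and GRXC8 were never called, with differences between 0.03 and 0.63, and GRXC3 was among the 3 dim members.

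Among the GRXS genes, GRXS4 (LOC4327794) was higher in 3 of the 4 comparisons. It rose in IR64 to 339 and 379 under drought, against 122 and 145 in the control (1.33, SE 0.14, adjusted p 5.19e-05), and in Vandana to 421 and 412, against 157 and 151 (1.34, SE 0.14, adjusted p 2.29e-05). It rose in CSR11 under salt to 350 and 398, against 101 and 129 (1.58, SE 0.14, adjusted p 4.83e-05). In VSR156 it had 282 and 297 in salt arrays, against 234 and 200 in the control (0.40, not called). The stressed arrays under every variety label stood above their controls, and the VSR156 control arrays were the highest of the control arrays. A second probe set of GRXS4 gave 1.34 in CSR11 (adjusted p 0.000503) and 0.58 in both drought comparisons, which is under the limit for a call. All 3 calls ended under the other scalings. As deposited and after centring, CSR11 was at 0.29 and 0.44, IR64 at 1.69 and 1.61, and Vandana at 0.94 and 1.19.

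GRXS12 (LOC4351647) fell in both drought comparisons. It had 152 and 127 in IR64 drought arrays, against 406 and 399 in the control (-1.43, SE 0.12, adjusted p 8.48e-06), and 157 and 150 in Vandana drought arrays, against 559 and 513 (-1.70, SE 0.12, adjusted p 1e-06). Under salt it stood at 556 and 574 in VSR156, against 756 and 678 (-0.33), and at 606 and 620 in CSR11, against 482 and 561 (0.23). All 4 drought arrays thus lay below every other array of this gene. Both calls ended under the other scalings, with IR64 at -1.19 as deposited and -1.27 after centring and Vandana at -2.28 and -2.03.

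GRXS2 (LOC4327316) and GRXS5 (LOC4326324) rose in VSR156 under salt and were not called in CSR11. GRXS2 had 525 and 662 in VSR156 salt arrays, against 134 and 109 in the control (2.14, SE 0.20, adjusted p 3e-05), and 326 and 232 in CSR11 salt arrays, against 355 and 403 (-0.44). GRXS5 had 548 and 621 in VSR156 salt arrays, against 169 and 191 (1.61, SE 0.15, adjusted p 3.89e-05), and 297 and 357 in CSR11 salt arrays, against 487 and 349 (-0.33). As with GRXC1, the VSR156 control arrays held the lowest values of the salt experiment and the root marker sums were higher in the VSR156 salt arrays. Whether those markers have a part was not tested. On the deposited scale the VSR156 differences were -0.28 for GRXS2 and -0.78 for GRXS5.

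GRXS5 also rose in Vandana under drought, to 1051 and 1070, against 400 and 376 in the control (1.41, SE 0.15, adjusted p 3.39e-05). In IR64 it had 1014 and 1071, against 1103 and 1062 (-0.05), and against the IR64 control the Vandana-labelled arrays differed by -0.03. The 2 Vandana control arrays were the low ones among the 8. GRXS2 read between 96.7 and 151 in all 8 drought-experiment arrays and was not called there.

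GRXS1 (LOC4327130) rose in both salt comparisons, to 155 and 132 in VSR156, against 53 and 48.4 in the control (1.26, SE 0.20, adjusted p 0.00133), and to 117 and 163 in CSR11, against 41.1 and 66.5 (1.17, SE 0.20, adjusted p 0.00284). The salt arrays lay above the control arrays in both varieties. The CSR11 call was lost without CSR11 control array A (0.91) or salt array B (0.96), and in VSR156 the deposited scale gave -0.99 and centring -0.44. Under drought GRXS1 was at 48.4 and 45.5 in IR64, against 17.9 and 30.3, and at 44.3 and 50.5 in Vandana, against 28.9 and 27.7, and was not called. The other 6 GRXS genes (S3, S6, S7, S9, S10 and S11) were not called in any stress comparison, with differences between -0.83 and 0.85. TRX1, the SET-domain gene, was not called either, with -0.92 in VSR156, -0.68 in CSR11, 0.41 in IR64 and 0.36 in Vandana.

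The responses of the 2 varieties were then compared by their difference, called at the adjusted p alone. Under salt, VSR156 minus CSR11, 6 of 33 members were called (18.2%), against 18.4% of all genes and 22.7% of the brighter ones, with 5 higher and 1 lower. GRXC1 differed most, by 3.26 (SE 0.31, adjusted p 0.000108), followed by GRXS2 with 2.58 (SE 0.28, adjusted p 0.000288) and GRXS5 with 1.94 (SE 0.22, adjusted p 0.000354). GRXS4 was lower in VSR156 by this measure (-1.19, SE 0.20, adjusted p 0.00375). Trxf (0.68, adjusted p 0.0392) and Trx15 (0.50, adjusted p 0.0402) lay close to the limit. Trxf kept the call in 3 and Trx15 in 2 of 16 fits that left out 1 array each, arrays of the drought experiment included, from which the spread is estimated too. Without CSR11 salt array A, 11 members were called, and the share of all probe sets called went with it, to 23.6% against 9.04% with all arrays. On the values as deposited and after centring 0 members were called, so that all 6 calls ended, while 0.463% and 0.6% of all probe sets were called.

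Under drought, IR64 minus Vandana, 8 of 33 members differed (24.2%), against 13.7% of all genes and 19.3% of the brighter ones, with 3 higher and 5 lower. The 3 higher were GRXC genes, GRXC10 with 3.49 (SE 0.34, adjusted p 6.66e-05), GRXC15 with 2.83 (SE 0.18, adjusted p 2.25e-06) and GRXC1 with 2.67 (SE 0.31, adjusted p 0.000225). Lower were GRXC7 with -2.60 (SE 0.33, adjusted p 0.000423), GRXS5 with -1.47 (SE 0.22, adjusted p 0.00134), Trxh4-2 with -1.19 (SE 0.27, adjusted p 0.0201), GRXS3 with -1.01 (SE 0.27, adjusted p 0.0485) and Trx15 with -0.58 (SE 0.13, adjusted p 0.0201). With the labels of the drought arrays exchanged, an alternative chosen after the data were seen, 4 members were called, against 3.65% of all probe sets. GRXC1 (-0.14), GRXS3 (0.61) and Trxh4-2 (0.01) changed sign. In that setting GRXC10 was at 1.03 (adjusted p 0.174). On the values as deposited 1 member was called, against 1.58% of all probe sets, and after centring 1, against 2.4%. Of 16 fits that left out 1 array each, Trxh4-2 kept the call in 9, Trx15 in 8 and GRXS3 in 6, and a second probe set of Trxh4-2 gave -0.19. GRXS3 was among the dim members, with a log2 level of at most 5.76. With 1 added to the intensities in place of 16, its adjusted p by limma was 0.577.

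**Figure D4:**
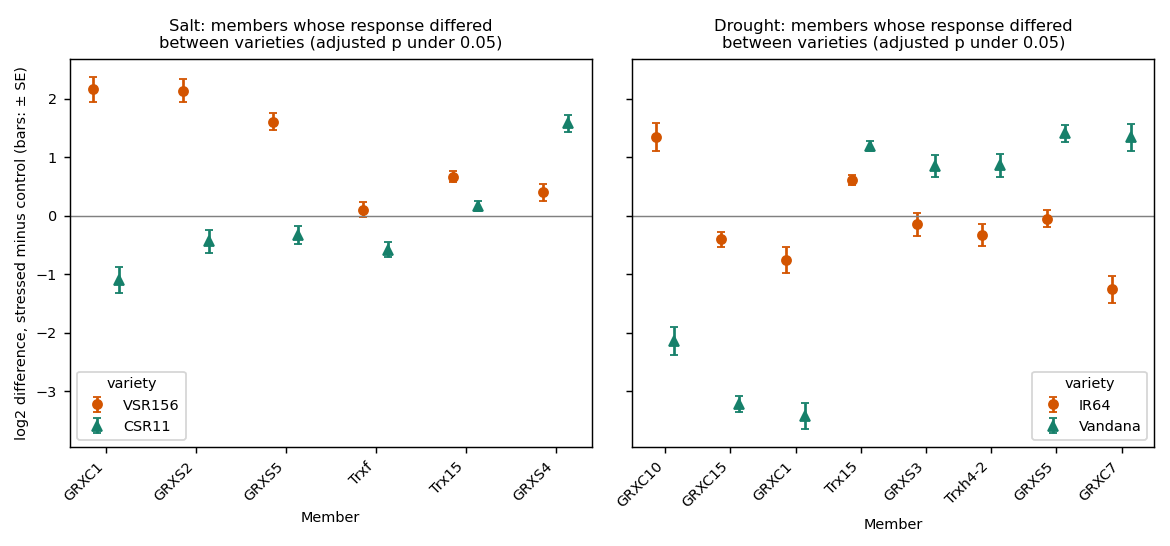
Response to stress as log2 difference with its SE (y axis) of the members whose response differed between varieties (x axis), VSR156 and CSR11 under salt on the left, IR64 and Vandana under drought on the right. GRXC1 is at 2.16 in VSR156 and -1.10 in CSR11, and GRXC7 is at -1.26 in IR64 and 1.34 in Vandana.

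The control arrays of the varieties were compared directly. These comparisons use the same control arrays as the stress comparisons above, so their values are given side by side and are no separate evidence. Between the controls of the salt experiment, VSR156 minus CSR11, 7 of 33 members were called (21.2%), against 8.97% of all genes and 10.3% of the brighter ones, with GRXC10 higher and 6 lower. GRXC10 had 62.8 and 55.8 in VSR156, against 13.2 and 11.9 in CSR11 (1.40, SE 0.24, adjusted p 0.00313). Lower in VSR156 were GRXC1 (-2.88), GRXS2 (-1.52), Trxf (-1.16), GRXC15 (-1.15), GRXS5 (-1.13) and Trxh1 (-1.03). The calls of GRXS5 and Trxf were lost without CSR11 control array A (-0.90 and -0.96), and that of Trxh1 without VSR156 control array B (-0.98) or CSR11 control array B (-0.92). A second probe set of Trxh1 gave -0.41. The root markers were lower in the VSR156 control as well, with 3 of 3 called, and their part was not tested.

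Between the controls of the drought experiment, IR64 minus Vandana, 5 of 33 members were called (15.2%), against 8.65% of all genes and 11.7% of the brighter ones, and all 5 were glutaredoxins. GRXC7 (2.05, SE 0.23, adjusted p 0.000147) and GRXS5 (1.44, SE 0.15, adjusted p 9.17e-05) were higher in IR64. GRXC15 (-2.84, SE 0.13, adjusted p 1.28e-07), GRXC10 (-2.26, SE 0.24, adjusted p 0.000103) and GRXC1 (-1.26, SE 0.22, adjusted p 0.00276) were lower.

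Genes that work with the redoxins were followed from lists of reductases, peroxidases and scavenging enzymes. Their differences against the other drought control and under the other scalings are not given. Beside the counts of these lists stand the shares of all genes called, 13.3% in VSR156, 10.4% in CSR11, 13.6% in IR64 and 24.1% in Vandana. Of 4 thioredoxin reductase genes, 1 fell in VSR156, CSR11 and Vandana and 0 were called in IR64. That gene was NtrC, a plastid NADPH-thioredoxin reductase with a thioredoxin domain of its own, with 94.9 and 118 in VSR156 salt arrays, against 337 and 322 in the control (-1.5, SE 0.26, adjusted p 0.00216). It had 44.1 and 11.7 in CSR11 salt arrays, against 90 and 87.8 (-1.36), and 104 and 107 in Vandana drought arrays, against 389 and 368 (-1.70). In IR64 it was at 149 and 152, against 184 and 170, and was not called. The Vandana control arrays thus stood above all other drought-experiment arrays of NtrC.

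Of 11 thiol peroxidase and methionine sulfoxide reductase genes, 2 rose in VSR156, 0 were called in CSR11, 3 fell in IR64, and 2 rose and 3 fell in Vandana. PRXIIE-2, named as a peroxiredoxin of the type II, fell under drought to 106 and 123 in IR64, against 816 and 819 in the control (-2.68, SE 0.23, adjusted p 1.31e-05), and to 92.2 and 113 in Vandana, against 1167 and 1727 (-3.60, SE 0.23, adjusted p 5.7e-07). The plastid 2-Cys peroxiredoxin gene bas1, whose product NTRC reduces, fell to 533 and 612 in IR64, against 1688 and 1529 (-1.47), and to 505 and 432 in Vandana, against 1858 and 2191 (-2.07). MSRB3, a methionine sulfoxide reductase gene, rose in Vandana to 1220 and 1388, against 219 and 264 (2.36, SE 0.18, adjusted p 1.93e-06), and was at 679 and 618 in IR64, against 835 and 853. The Vandana control arrays were thus the lowest of the drought experiment for MSRB3, far below the IR64 control arrays. PRXIIE-2 and bas1 were thus lower in the same drought arrays as Trxf and Trxy.

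Of the 2 genes of glutathione reduction and synthesis, GR, which encodes glutathione reductase, rose under drought to 1348 and 1404 in IR64, against 629 and 631 (1.11, SE 0.11, adjusted p 3.57e-05), and to 1368 and 1372 in Vandana, against 570 and 580 (1.23, SE 0.11, adjusted p 7.28e-06). GSH1-1 fell in VSR156 under salt (-1.18, SE 0.16, adjusted p 0.00038). Of 9 ascorbate cycle genes, 1 was called in VSR156 (APX7, 1.07), 1 in CSR11 (APX8, -1.01), 1 in IR64 (APX1, 2.01) and 0 in Vandana. APX1 had 1350 and 1284 in IR64 drought arrays, against 307 and 326 in the control, and 1109 and 1093 in Vandana drought arrays, against 1003 and 1004, so that the IR64 control arrays were the low ones. Of 6 superoxide dismutase and catalase genes, 2 rose and 1 fell in both drought comparisons. SODCC.2, a cytosolic superoxide dismutase gene, rose in IR64 (1.44) and Vandana (1.62), and also in VSR156 under salt (1.03), CAT-B rose in IR64 (1.06) and Vandana (1.23), and CAT-A fell in IR64 (-1.87) and Vandana (-1.83).

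**Figure D5:**
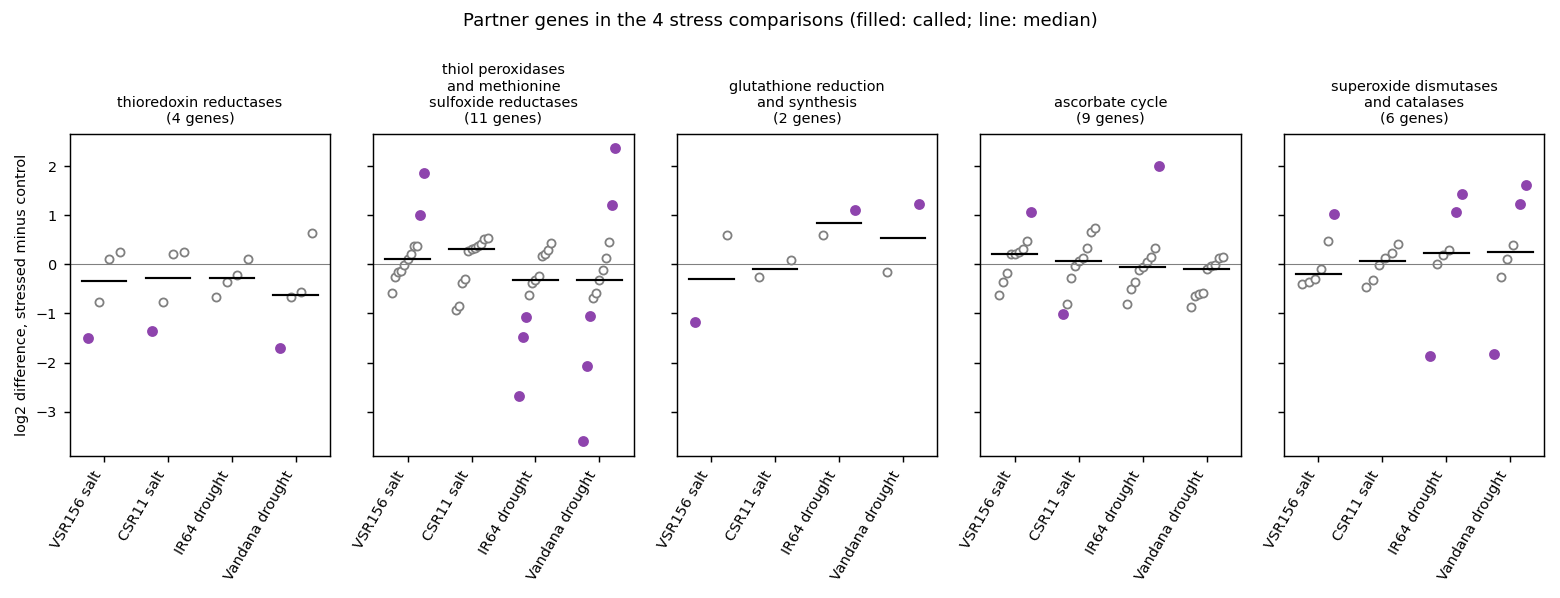
Log2 difference, stressed minus control (y axis), of the genes of 5 partner lists in the 4 stress comparisons (x axis), with called genes filled and the list median as a line. The lowest point is PRXIIE-2 in Vandana drought at -3.60 and the highest is MSRB3 in the same arrays at 2.36.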

How the data were processed

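Processed values of 16 Affymetrix rice arrays were used. The authors deposited 1 intensity per probe set and array, made with GCOS 1.0 per the submitters' processing notes. The study's methods describe RMA, but the deposited intensities are linear and run to different levels on different arrays. After 187 control probe sets were left out, the remaining 57194 were quantile-normalised and used as log2(intensity + 16). Testing used limma 3.58.1 (R 4.3.3), with 1 mean per group and a spread pooled over all 8 groups (residual degrees of freedom 8, prior 2.94). The annotation names 1 gene for 22436 probe sets, and the brightest probe set stood for a gene. Of the members, 8 have further probe sets, and 5 are read by probe sets of the s_at or x_at kind, which can bind related transcripts. Every member called in a stress comparison is named with its values, other members by ranges, and of the partner lists at most 3 genes each by size. The members and lists were chosen with earlier results of these data known. No block was used for the letters, since the study's methods use none. Arrays of the same letter deviated together at r between -0.0268 and 0.0122 within a variety. The code was tested on simulated data. The number of arrays limits the precision. Protein sequences were not analysed here. Python 3.11.15, pandas 2.3.3 and matplotlib 3.10.9 served for tables and plots.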

Additional observations from a re-analysis of the deposited data

Results flagged for a closer look

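The responses of 6 members to salt differed between the varieties by the interaction test. VSR156 minus CSR11 was 3.26 for GRXC1, 2.58 for GRXS2, 1.94 for GRXS5, 0.68 for Trxf, 0.50 for Trx15 and -1.19 for GRXS4. Under drought 8 members differed by the same kind of test. IR64 minus Vandana was 3.49 for GRXC10, 2.83 for GRXC15, 2.67 for GRXC1, -0.58 for Trx15, -1.01 for GRXS3, -1.19 for Trxh4-2, -1.47 for GRXS5 and -2.60 for GRXC7. The root marker sums in the salt arrays, and the likeness of the Vandana-labelled drought arrays to the IR64 control, stand beside these differences in the results, and their part was not tested.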

How the results depend on the processing

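Of 57 called differences of single members, the filter on dim probe sets kept all 56 that it tested, and array weights kept 53. Leaving out each array in turn kept 843 of 912 results. Many of the 912 left out an array outside the comparison, which enters only through the normalisation and the pooled spread. That share therefore says little about dependence on single arrays of a comparison. The methods' t-test with adjustment kept 0 of 31. On the values as deposited 7 of 57 were kept, 39 lost the call and 11 changed sign, and with centred arrays 11 were kept, 41 lost the call and 5 changed sign. Both of these scalings leave differences in array brightness in the values, at least in part. The causes of the losses were not tested.

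On the values as deposited the members called were 9 in VSR156 (all lower), 0 in CSR11, 0 in IR64, 3 in Vandana, 0 for the salt and 1 for the drought difference of responses, and 0 and 1 between the salt and the drought controls. With centred arrays they were 8 in VSR156 (all lower), 0 in CSR11, 1 in IR64, 4 in Vandana, 0 and 1 for the differences of responses, and 1 and 2 between controls. Between the salt and the drought controls, 1.53% and 1.61% of all probe sets were called as deposited, and 2.59% and 2.72% after centring. On the deposited scale VSR156 salt gave -1.04 for Trxh4-1, -0.14 for GRXC1, -0.78 for GRXS5, -0.99 for GRXS1, -0.28 for GRXS2 and -1.08 for GRXC7, CSR11 salt gave -0.04 for GRXS1, the salt difference of responses gave -0.62 for Trxf and -0.36 for Trx15, the drought difference 0.14 for Trx15, and the salt controls 0.05 for GRXS5. After centring, VSR156 salt gave -0.49 for Trxh4-1, -0.24 for GRXS5, -0.44 for GRXS1 and -0.53 for GRXC7, and the salt difference of responses gave -0.22 for Trxf.

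With a pseudocount of 64, 4 members were called in VSR156, 2 in CSR11, 10 for the salt difference of responses and 3 between the salt controls. Of all probe sets 2.86%, 2.34%, 10.2% and 2.23% were called there. With a pseudocount of 1, 3 were called for the salt and 5 for the drought difference, against 2.85% and 3.63% of all probe sets. Without a fold threshold, 16 were called in VSR156, 7 in CSR11, 11 in IR64 and 20 in Vandana. The methods' t-test, unadjusted, called 5 in VSR156 and 1 in CSR11, and after Benjamini-Hochberg adjustment 0 in each of the 4 stress comparisons. With the 8 arrays of an experiment alone, 2 were called in CSR11, 3 for the salt and 13 for the drought difference. The shares of all probe sets were 3.1%, 1.7% and 13.3%. With the 4 arrays of a variety, 0 members were called in CSR11, where 0 of all probe sets were called. Array weights gave 2 in CSR11, against 4.1% of all probe sets. The filter gave 11 of 30 tested members for the salt difference, against 31.4% of the probe sets it kept.

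Against the control of the other drought variety, 10 were called in IR64 and 5 in Vandana, against 10.4% and 6.28% of all probe sets. GRXC7 was at 0.78 and GRXC10 at -0.91 in IR64, and GRXS5 at -0.03, GRXC7 at -0.71 and GRXC10 at 0.12 in Vandana. With the drought labels exchanged, chosen after the data were seen, 4 were called for the drought difference, against 3.65% of all probe sets. GRXC1 was then at -0.14, GRXS3 at 0.61 and Trxh4-2 at 0.01. The letters A and B share only a label. With them as a replicate block, the drought difference had 5 calls and the salt difference 4, and the counts of the other 6 comparisons did not change. Of all probe sets 5.23% and 5.92% were called for these differences, against 7.41% and 9.04% without the block.

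Leaving out single arrays moved the counts between 6 and 8 in VSR156, 3 and 5 in CSR11, 12 and 13 in Vandana, 4 and 11 for the salt difference (11 without CSR11 salt array A) and 5 and 9 for the drought difference. That count was 5 without either array of IR64 control, IR64 drought or Vandana drought, or without Vandana control array A. Between the salt controls it lay between 5 and 7 and between the drought controls between 5 and 6, and it stayed at 6 in IR64.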
